A study of Mus musculus with 20 samples.

Results

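The matrix proteases and their inhibitors were followed as 57 of the 17097 genes named on the array. They were taken by symbol: the numbered Mmp genes (18 genes), Timp1 to Timp3 (3 genes), the numbered Adam genes (22 genes) and the numbered Adamts genes (14 genes). They were read by 100 of the 45037 probe sets left after control probe sets were removed. Of the 57 genes, 42 passed a filter on dim signal and could be tested (15 Mmp, 3 Timp, 12 Adam and 12 Adamts genes), and 15 could not. Passing depended on signal in any group, so the 42 genes are not a sample of the whole family. Timp4 was in the rule, but 0 probe sets carried its symbol alone.

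The study asked how mouse sarcomas driven by CIC-DUX4, a fusion of the repressor CIC with the transcription factor DUX4, differ from the cells they came from and from another sarcoma. Each of 20 mouse samples was measured on 1 array of perfect-match probes. The CDS tumors (CIC-DUX4 sarcoma, n = 6) were individual subcutaneous masses in Balb/c nude mice that received embryonic mesenchymal cells (eMC) carrying CIC-DUX4. The ES tumors (mouse Ewing sarcoma, n = 6) were also grown under the skin of Balb/c nude mice; the labels state neither their driver nor their cell of origin. Primary eMC were collected 48 hours after spinofection with the pMYs-CIC-DUX4-IRES-GFP retrovirus (eMC CIC-DUX4, n = 4) or with pMYs-IRES-GFP (eMC empty, n = 4), in Iscove's modified DMEM with serum. Tumors were untreated, ages were not given, nude mice lack mature T cells but keep other host cells, and nothing says whether the eMC arrays were separate cultures. The p-values therefore measure the spread between these samples, which may be partly technical for the cultures.

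The arrays did not share a distribution of signal, which touches every result below. An array's log2 signals fell into a dim and a bright part, and the lowest point between them is called the dip. Probe sets brighter than the dip made up 11.1% to 26.9% in eMC empty, 38.5% to 70.9% in eMC CIC-DUX4, 11.7% to 57.3% in CDS tumors and 27.9% to 40.4% in ES tumors; array 6 of eMC CIC-DUX4 showed none. The median log2 fold change of all 12343 tested genes was 2.07 for eMC CIC-DUX4 against eMC empty, 0.89 and 0.64 for CDS and ES tumors against eMC empty, 0.02 for CDS against ES tumors and -0.92 between CDS tumors and eMC CIC-DUX4. Most fold changes are therefore given as deposited and, named as quantile, after the arrays were forced to 1 distribution, where those medians lay between -0.10 and 0.01. A fold with no quantile value or other setting beside it is given as deposited only. Levels are log2 signals with a small offset, and the offset draws the folds of dim genes toward 0. Folds that rest on signals below the dip can also shrink or turn between the scales, as given gene by gene. The summed linear signal of 5 CIC-DUX4 sarcoma markers (Etv1, Etv4, Etv5, Muc5ac and Vgf) was 76600 to 317000 in CDS tumors and 39.9 to 182 in eMC empty. These markers were listed with earlier results of these data known, so their sum is no independent check of the labels. The sum was 3300 to 4150 in eMC CIC-DUX4. There Etv4 was above the dip in 0 arrays, and 3 of the 5 markers were called higher than in eMC empty. Of the 5 Ewing sarcoma markers, Nkx2-2 and Nr0b1 did not pass the filter, and the summed signal was 8150 to 15900 in ES tumors against 10300 to 15400 in eMC empty. In CDS tumors that sum was higher, at 25500 to 105000. Ccnd1, the brightest of these markers, averaged 15.44 in CDS and 13.30 in ES tumors, and Cd99 averaged 9.46 and 9.64. Of the 3 tested, 1 was called higher and 0 lower in CDS than in ES tumors. In bulk samples, fewer cells of a type and less RNA per cell cannot be told apart.

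Matrix metalloproteinases (MMPs) are zinc enzymes that are made as inactive proforms and cut collagens, gelatin, proteoglycans and other secreted proteins. ADAMTS enzymes are secreted relatives that bind the matrix and cut aggrecan, versican and procollagens, while ADAM proteins sit in the membrane, where several release ligands and receptors from the cell surface. TIMPs are small secreted proteins that block the active site, so the balance of enzyme and inhibitor sets how much matrix is turned over in cartilage, bone, wounds and tumors.

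Of the genes whose values are given below, Mmp13, Mmp12 and Mmp3 lie side by side with other members on chromosome 9. In the order of the gene table, that cluster runs Mmp13, Mmp12, Mmp1b, Mmp3, Mmp1a, Mmp10, Mmp8, Mmp27, Mmp20 and Mmp7, and 9 of these 10 genes are members. Their promoters are shown because these neighbours had different patterns across the tumors. The sequences are the 250 bases before the annotated start, from RefSeq on GRCm38.p6, plus strand. Mmp12 has 2 annotated starts, and the one shown was picked because its promoter holds an AP-1 match. The promoter of its other start, at chr9:7344147-7344396, holds no AP-1 match. That promoter has a PEA3 match 87 bases before the start, on the minus strand. Capitals mark each match to the AP-1 site, TGAGTCA or on the other strand TGACTCA. They also mark each match to the PEA3 site, AGGAAG or on the other strand CTTCCT, the motif of ETS factors such as Etv4.
Mmp13 at chr9:7272264-7272513: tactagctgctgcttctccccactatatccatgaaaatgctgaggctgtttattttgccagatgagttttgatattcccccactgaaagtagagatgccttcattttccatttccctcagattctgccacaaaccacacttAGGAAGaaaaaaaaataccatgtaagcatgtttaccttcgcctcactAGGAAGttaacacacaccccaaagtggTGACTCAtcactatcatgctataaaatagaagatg
Mmp12 at chr9:7347124-7347373: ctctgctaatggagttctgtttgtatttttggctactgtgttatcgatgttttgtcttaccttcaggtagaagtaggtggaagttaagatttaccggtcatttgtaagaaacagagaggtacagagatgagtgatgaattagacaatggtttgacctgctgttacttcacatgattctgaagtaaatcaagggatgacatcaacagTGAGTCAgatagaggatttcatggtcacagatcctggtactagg
Mmp3 at chr9:7445572-7445821: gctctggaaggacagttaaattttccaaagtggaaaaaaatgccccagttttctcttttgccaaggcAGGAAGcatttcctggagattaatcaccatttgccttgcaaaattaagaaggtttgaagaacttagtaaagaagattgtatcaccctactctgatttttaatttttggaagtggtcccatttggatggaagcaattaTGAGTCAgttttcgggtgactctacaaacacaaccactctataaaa

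The AP-1 match began 35 bases before the start in Mmp13, on the minus strand. It began 44 bases before the start shown in Mmp12 and 46 in Mmp3, on the plus strand. Over windows of 250 bases before to 50 after a start, an AP-1 match was found in 5.2% of all 32851 promoters and in 8 of the 37 promoters of 32 members (21.6%). The genes were Adam19, Mmp1a, Mmp1b, Mmp3, Mmp7, Mmp10, Mmp12 and Mmp13, all but Adam19 in the chromosome 9 cluster. A PEA3 match was found in 35.4% of all promoters and 43.2% of the members' promoters. Matches to the CIC octamer TGAATGAA (TTCATTCA) numbered 0 of 37, against 1.3% of all promoters. The AP-1 and PEA3 words do not overlap in the printed sequences, and a match is a run of letters, not a measured site.

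A gene was called in a comparison at a Benjamini-Hochberg adjusted p under 0.05 in limma, over all 12343 genes, with a log2 fold change of 1 or more in size. In eMC CIC-DUX4 against eMC empty, 17 of 42 members were called higher, where 46.4% of all genes were, and 3 lower, where 4.62% were. On both scales the calls were 6 higher (7.74% of all genes) and 1 lower (0.381%). The members' median was 1.61 as deposited against 2.07 for all genes. The deposited count of higher calls was thus near the background.

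Comparing CDS tumors with eMC empty, 5 members were called higher (14.6% of all genes) and 7 lower (5.81%), and 5 higher and 5 lower on both scales (12.9% and 4.24%). In ES tumors against eMC empty, 2 members were called higher (30.1%) and 15 lower (10.9%), and on both scales 1 higher (14.6%) and 15 lower (8.28%). The members' median there was -0.67 as deposited and -1.37 by quantile, while that of all genes was 0.64 and -0.04. CDS tumors against ES tumors gave 8 higher (11.2%) and 3 lower (9.58%), the same 8 and 3 on both scales (9.37% and 9.46%). CDS tumors against eMC CIC-DUX4 gave 3 higher (5.14%) and 12 lower (12.7%), all 15 called on both scales (4.05% and 12.5%). By quantile alone, the members called higher and lower were 6 and 2 between the cultures (8.13% and 4.81% of all genes), 6 and 15 in CDS tumors against eMC empty (17.6% and 19.2%), and 2 and 23 in ES tumors against eMC empty (17.3% and 18.9%). They were 17 and 4 in CDS against ES tumors (16.9% and 16.2%) and 6 and 17 between CDS tumors and eMC CIC-DUX4 (16.8% and 20.2%). Of the 5 comparisons, 3 share the eMC empty arrays, and 3 share the CDS tumor arrays, so they are not independent.

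**Figure D1:**
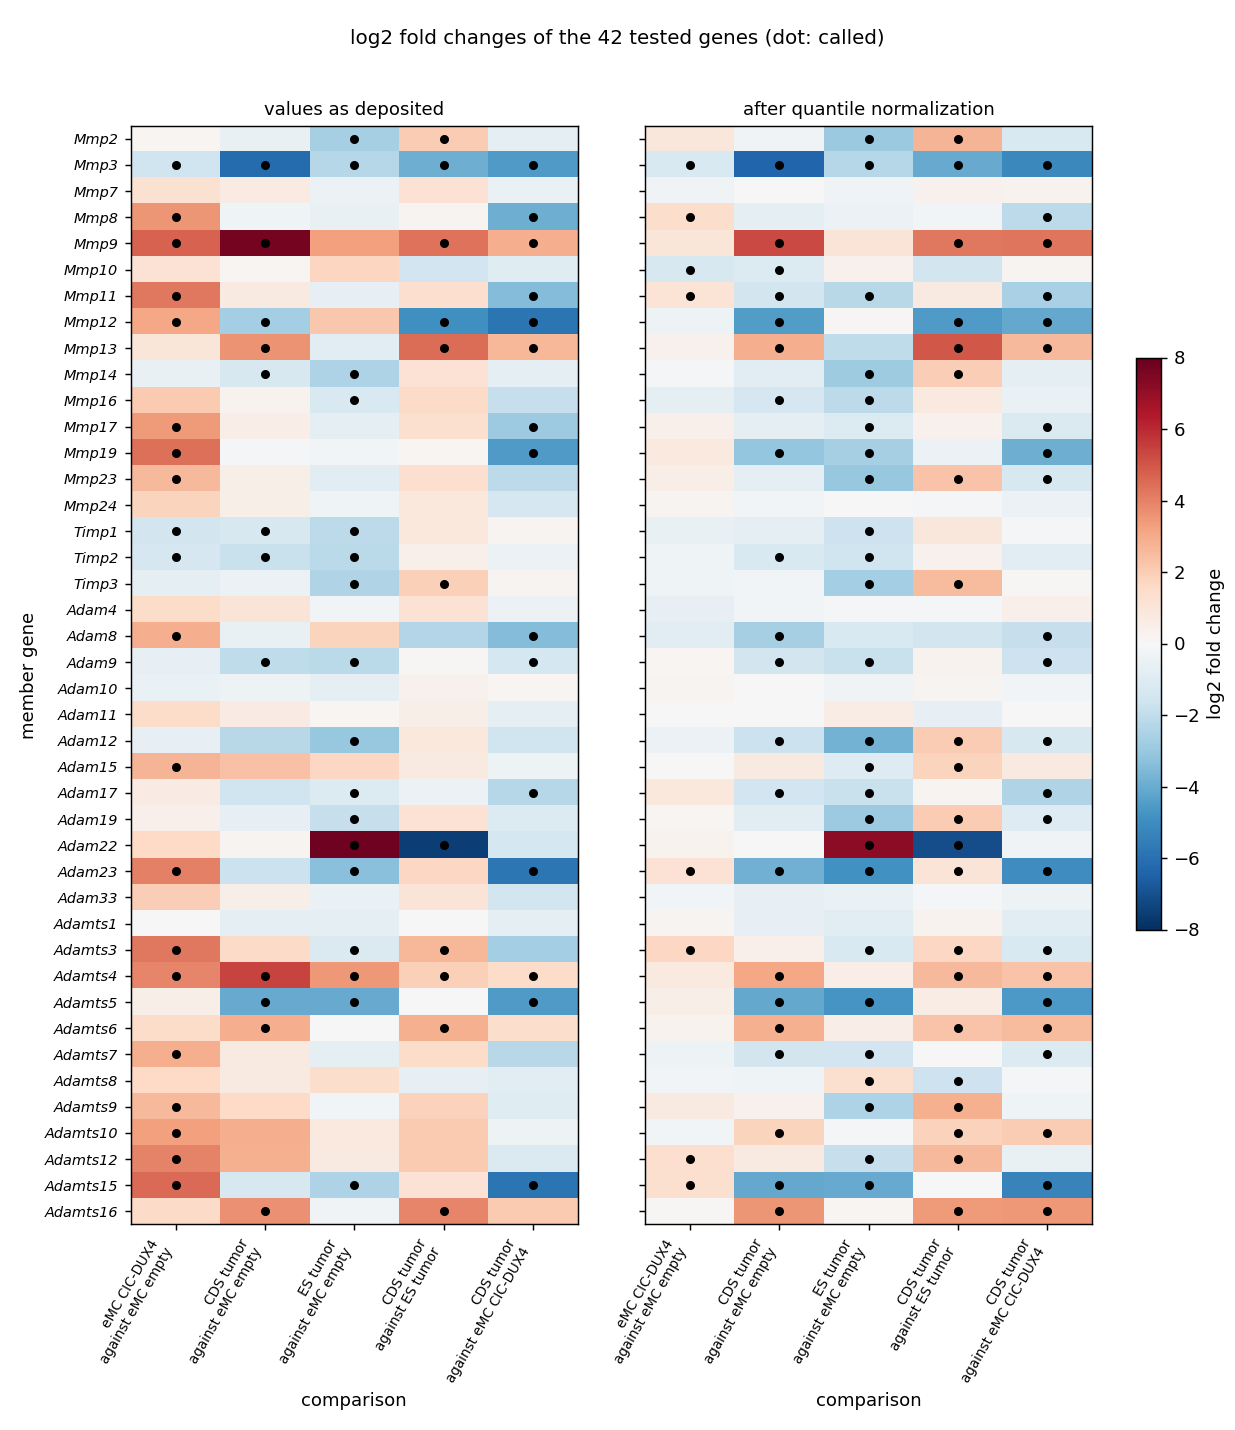
The map of fold changes shows the log2 fold change of each of the 42 tested genes (rows, by family) in the 5 comparisons (columns), as deposited at left and after quantile normalization at right, red for higher and blue for lower, with a dot where the gene was called. The column of eMC CIC-DUX4 against eMC empty holds 17 genes called higher at left and 6 at right, whereas ES tumors against eMC empty held 15 called lower at left and 23 at right.

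Mmp9 and Mmp2 are the gelatinases, which cut denatured collagen and basement membrane collagen. Mmp9 had log2 signals of 4.19, 4.42, 4.02 and 3.49 in eMC empty, 8.63, 9.04, 8.75 and 8.61 in eMC CIC-DUX4, and a lowest, median and highest of 10.67, 11.72 and 12.94 in CDS tumors. These 3 groups did not overlap, and all 4 eMC empty arrays lay below their dips. In ES tumors it ran from 3.48 through a median of 7.70 to 11.94, from below the dip in 2 tumors to within the range of the CDS tumors in 1. Mmp9 was higher in CDS tumors than in eMC empty by 7.64 ± 0.67 (log2 fold change ± SE, adjusted p = 4.37e-07, quantile 5.25), at least 28.1-fold where the dip stands for the dim arrays. It also exceeded eMC CIC-DUX4 by 2.91 ± 0.44 (adjusted p = 0.000456, quantile 4.26) and ES tumors by 4.37 ± 1.13 (adjusted p = 0.011, quantile 4.24). Its difference between the cultures, 4.73 ± 0.33 (adjusted p = 8.32e-06, at least 3.73-fold), was 2.66 above the median of all genes but came to 0.98 by quantile, under the fold threshold. The other probe set of Mmp9 gave 6.35 in CDS tumors against eMC empty and 4.67 between the cultures.

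Mmp9 is also a major product of osteoclasts and neutrophils, so their markers are given beside it. The summed signal of the 5 osteoclast markers on the array was 4100 to 20000 in CDS tumors and 324 to 6530 in ES tumors. It was 898 to 1240 in eMC CIC-DUX4 and 39.7 to 145 in eMC empty. The highest CDS tumor for both Mmp9 and this sum was CDS tumor 1, and the highest ES tumor for both was ES tumor 46. Acp5 made up most of the highest sums. In log2 these sums were 14.29 in CDS and 12.67 in ES tumors, where Acp5 alone reached 14.22 and 12.57. Of the 4 tested, only Acp5 lay above the dip in all CDS tumors, and Ocstamp and Oscar did so in 0 ES tumors. Of the osteoclast markers, 3 of 4 tested were called higher in CDS tumors than in eMC empty. The neutrophil sum was 41.9 to 2110 in CDS tumors, 712 to 10100 in ES tumors, 21.4 to 761 in eMC CIC-DUX4 and 36.9 to 58.4 in eMC empty. In CDS tumors S100a8 and S100a9 lay above the dip in 3 of 6 arrays each and Camp and Ltf in 0, and 2 of 6 neutrophil markers were called higher than in eMC empty on both scales. The part of either cell type in the Mmp9 result was not tested.

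Mmp2 was bright in every group. It measured 12.82, 12.80, 12.47 and 12.49 in eMC empty and 12.77, 12.59, 12.92 and 13.01 in eMC CIC-DUX4, with a lowest, median and highest of 10.08, 12.29 and 13.03 in CDS tumors and 8.93, 9.78 and 12.02 in ES tumors. The cultures and CDS tumors overlapped, and the ES tumors lay below all eMC empty arrays. Mmp2 was lower in ES tumors than in eMC empty by -2.66 ± 0.48 (limma adjusted p = 0.000783, quantile -2.99), and higher in CDS than in ES tumors by 2.04 ± 0.51 (adjusted p = 0.00902, quantile 2.69). The last call was lost after median scaling (1.03, adjusted p = 0.271). Within each tumor group 1 array stood apart, CDS tumor 6 at 10.08 and ES tumor 46 at 12.02. Between the cultures the difference was 0.18 ± 0.14 (quantile 0.91), and it was not called on either scale.

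Mmp13 and Mmp8 are collagenases, which cut the collagen triple helix; Mmp13 is the main one of mouse cartilage and bone, and Mmp8 is best known from neutrophils. Mmp13 measured 9.74, 8.46, 10.60 and 10.55 in eMC empty, 10.76, 10.67, 10.85 and 10.87 in eMC CIC-DUX4, and 12.17, 13.51 and 14.57 (lowest, median, highest) in CDS tumors. In ES tumors it ran from 5.94 through 8.35 to 13.69, ES tumor 46 being the highest. The CDS tumors lay above every array of both culture groups and above 5 of 6 ES tumors. Mmp13 was higher in CDS tumors by 3.60 ± 0.50 against eMC empty (adjusted p = 8.09e-05, quantile 2.93), by 2.65 ± 0.40 against eMC CIC-DUX4 (adjusted p = 0.000434, quantile 2.61) and by 4.47 ± 0.92 against ES tumors (adjusted p = 0.00234, quantile 4.94). Between the cultures it differed by 0.95 ± 0.46 and was not called.

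Chondrocyte markers are given beside Mmp13. The summed signal of the 8 listed markers was 21300 to 57600 in CDS tumors, 12000 to 13800 in eMC CIC-DUX4, 3150 to 4410 in eMC empty and 22.1 to 211 in ES tumors. In CDS tumors Col2a1 and Col9a1 lay above the dip in all arrays and Matn1 and Hapln1 in 0. Of the 8, 2 were called higher in CDS tumors than in eMC empty, and 1 was higher and 3 lower than in eMC CIC-DUX4. As deposited, the CDS tumor highest for Mmp13 and for that sum was CDS tumor 5, with 11.7% of its probe sets above the dip. It was also the highest CDS tumor for the sums of mesenchymal (123000), macrophage (78100), Ewing sarcoma (105000) and CIC-DUX4 sarcoma markers (317000). By quantile Mmp13 was highest in CDS tumor 1, at 13.89 against 13.65 in tumor 5. ES tumor 46 had a chondrocyte sum of 29.0 at a Mmp13 level of 13.69. The part of cartilage-like cells in the Mmp13 result was not tested. Mmp8 was dim throughout the tumors, between 1.80 and 3.24, and above the dip in 0 of 12 tumors. It measured 7.31, 7.63, 6.15 and 4.34 in eMC CIC-DUX4 and 2.86, 3.12, 2.61 and 2.59 in eMC empty, groups that did not overlap. The difference was 3.56 ± 0.72 (adjusted p = 0.0024, quantile 1.40). CDS tumors were lower than eMC CIC-DUX4 by -3.92 ± 0.82 (adjusted p = 0.00506), the cultures being at least 1.46-fold brighter.

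Mmp3, stromelysin 1, cuts proteoglycans and activates other proMMPs. It measured 12.74, 12.78, 12.65 and 12.41 in eMC empty and 11.08, 10.81, 11.14 and 11.16 in eMC CIC-DUX4. In the CDS tumors the 6 values were 2.97, 10.13, 9.04, 9.35, 4.25 and 3.19 for tumors 1 to 6. Tumors 2, 3 and 4 were bright and tumors 1, 5 and 6 lay below the dip, and after quantile normalization the first 3 still read 9.43, 8.30 and 8.08 and the others 3.40, 3.86 and 2.78. The dim 3 arrays had 24.5%, 11.7% and 20.1% of their probe sets above the dip, the bright 3 had 57.3%, 30.0% and 45.6%, and the part of that difference in the split was not tested. ES tumors ran from 8.13 through 10.35 to 11.96.

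Every CDS tumor lay below every culture for Mmp3. It was lower in CDS tumors than in eMC empty by -6.16 ± 1.30 (limma adjusted p = 0.0029, quantile -6.34) and lower in eMC CIC-DUX4 than in eMC empty by -1.60 ± 0.16 (adjusted p = 3.72e-05, quantile -1.20). It was also the only member called lower on both scales between the cultures, but that call was lost with all 4 groups in 1 fit (adjusted p = 0.254) and after the arrays were scaled to 1 median (-3.16, adjusted p = 0.192). ES tumors were lower than eMC empty by -2.26 ± 0.57 (adjusted p = 0.00593). CDS tumors were below ES tumors by -3.89 ± 1.22 (adjusted p = 0.03), but the call was lost without any of CDS tumors 1, 5 and 6 or ES tumors 41, 46, 47, 49 and 51, with adjusted p up to 0.0656. The difference from eMC CIC-DUX4, -4.56 ± 1.39 (adjusted p = 0.0356), was lost without CDS tumors 1, 5 or 6 or any 1 culture array of that group, with adjusted p up to 0.0883.

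Mmp12, the elastase of macrophages, had the most divided pattern in ES tumors. It measured 10.64, 10.96, 2.20, 2.22, 11.99 and 7.83 in ES tumors 41, 46, 47, 48, 49 and 51, so 4 were above the dip and 2 were near the bottom of the scale. In CDS tumors it lay between 1.80 and 3.65, below the dip in all 6. It measured 4.37, 4.74, 5.47 and 7.37 in eMC empty and 8.73, 8.81, 8.62 and 8.24 in eMC CIC-DUX4. CDS tumors were below eMC empty by -2.74 ± 0.69 (limma adjusted p = 0.00953, quantile -4.48) and below eMC CIC-DUX4 by -5.85 ± 0.79 (adjusted p = 0.000201, quantile -4.08), the cultures being at least 6.92-fold brighter. They were below ES tumors by -4.89 ± 1.57 (adjusted p = 0.0333, quantile -4.55), a call lost without any of CDS tumors 2, 4, 5 and 6 or ES tumors 41, 46, 49 and 51 (adjusted p up to 0.0729). Between the cultures Mmp12 was called higher as deposited (3.11 ± 0.62, adjusted p = 0.00223), but its sign turned by quantile (-0.40).

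Macrophage markers are given beside Mmp12. Their summed signal was 14300 to 78100 in CDS tumors and 22000 to 65900 in ES tumors, and limma called 0 of the 10 between these groups on either scale, with a median log2 fold change of -1.15. ES tumors 47 and 48, where Mmp12 was dim, had sums of 22000 and 43400, and all 10 markers were above the dip in every ES tumor. The cultures also carried some of these markers: in eMC empty the sum was 23400 to 33100, with Lyz2 and Tyrobp above the dip in all arrays and Csf1r, C1qa, C1qb and C1qc in 0.

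**Figure D2:**
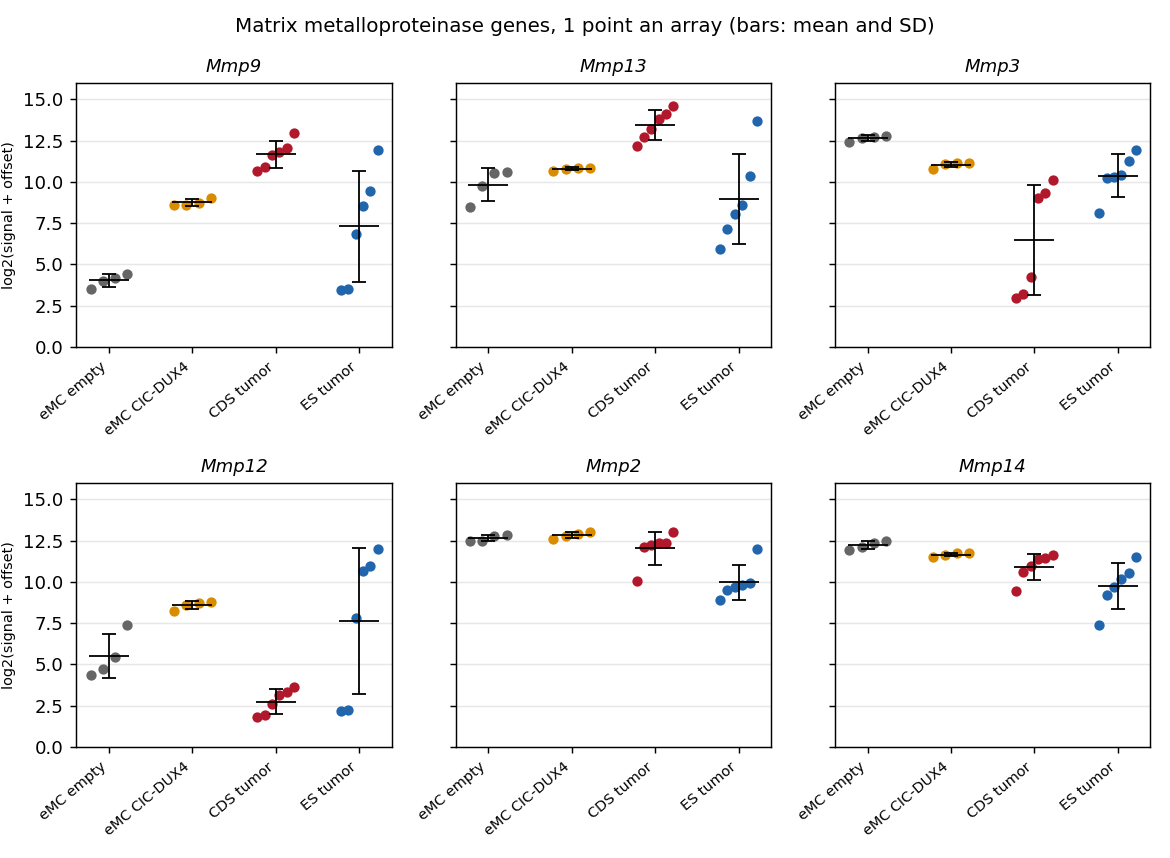
Each panel shows log2(signal + offset) of 1 Mmp gene (vertical axis) for the 4 groups (horizontal axis), 1 point per array, with the mean and SD as bars. Mmp9 and Mmp13 are highest in the CDS tumors apart from ES tumor 46, Mmp3 splits the CDS tumors into 3 bright and 3 dim arrays, and Mmp12 is dim in all CDS tumors and in 2 ES tumors.

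Mmp14, the membrane-anchored activator of proMMP2, measured 12.37, 12.49, 12.10 and 11.93 in eMC empty and 11.61, 11.51, 11.73 and 11.74 in eMC CIC-DUX4. It ran from 9.47 through 11.18 to 11.64 in CDS tumors and from 7.38 through 9.93 to 11.50 in ES tumors, so both tumor groups lay below all eMC empty arrays. The call in ES tumors was -2.47 ± 0.62 (limma adjusted p = 0.00581, quantile -2.85). In CDS tumors it was -1.31 ± 0.43 (adjusted p = 0.0373), -0.88 and not called by quantile, and lost without CDS tumors 3 or 6 or eMC empty 4, 5 or 6 (adjusted p up to 0.117). The mean of the probe sets of Mmp14 gave -0.44 there. The difference between the tumor groups, 1.17 ± 0.57, was not called as deposited (adjusted p = 0.143) and was by quantile (1.97). The other membrane-type genes were dim in most arrays. Mmp17 was above the dip in 1 CDS tumor and 0 ES tumors, Mmp16 likewise, and both lay above it in 0 eMC empty arrays. Mmp17 was above the dip in all eMC CIC-DUX4 arrays that had one, at 7.44, 7.87, 6.57 and 5.17, which gave 3.41 ± 0.60 over eMC empty as deposited and 0.41, not called, by quantile. Mmp16 was called lower in ES tumors than in eMC empty (-1.25 ± 0.24) on signals below the dip in both groups.

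Mmp11, stromelysin 3, measured 9.38, 9.52, 9.39 and 9.29 in eMC CIC-DUX4 and 4.56, 4.82, 3.97 and 7.44 in eMC empty. Its difference was 4.20 ± 0.69 (limma adjusted p = 0.000718, quantile 1.11). CDS tumors, between 3.96 and 7.97, were below eMC CIC-DUX4 by -3.50 ± 0.92 (adjusted p = 0.0188), a call lost without any 1 of the 4 culture arrays of that group (adjusted p up to 0.0675). Mmp19 measured 9.35, 9.34, 9.22 and 9.53 in eMC CIC-DUX4 against 4.75, 4.99, 4.25 and 5.71 in eMC empty. That is 4.43 ± 0.38 as deposited, but 0.76 and not called by quantile. CDS tumors, at 3.20 to 7.55, were below eMC CIC-DUX4 for Mmp19 by -4.51 ± 1.03 (adjusted p = 0.0088, quantile -3.88). Mmp23 was called between the cultures as deposited (2.57 ± 0.86) and not by quantile (0.53). Mmp7, Mmp24 and Mmp10 were above the dip in 1 CDS tumor each, and Mmp10 in 3 ES tumors, up to 8.93 in ES tumor 46.

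Among the ADAMTS genes the aggrecanases come first, the enzymes that cut aggrecan, the main cartilage proteoglycan. Adamts4 measured 4.93, 5.21, 4.15 and 8.69 in eMC empty, 9.65, 9.68, 9.66 and 9.66 in eMC CIC-DUX4 and 10.66, 11.16 and 11.47 (lowest, median, highest) in CDS tumors. These 3 groups did not overlap, and the ES tumors lay between 8.08 and 11.33, ES tumor 46 again the highest. Adamts4 was higher in CDS tumors by 5.39 ± 0.78 against eMC empty (adjusted p = 0.000122, quantile 3.12), 1.47 ± 0.31 against eMC CIC-DUX4 (adjusted p = 0.00577, quantile 2.31) and 1.93 ± 0.50 against ES tumors (adjusted p = 0.0105, quantile 2.62). ES tumors and eMC CIC-DUX4 were also called above eMC empty as deposited, by 3.46 ± 0.94 and 3.92 ± 0.87, but not by quantile (0.50 and 0.81). Against eMC CIC-DUX4 the CDS tumor call was lost in limma with all 4 groups in 1 fit (adjusted p = 0.117). It was also lost with a block on the replicate number (0.212), after median scaling (0.402) and with the mean of its probe sets (1.14, adjusted p = 0.269). Against ES tumors Adamts4 came to 0.92 after median scaling (adjusted p = 0.304).

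Adamts5, the other major aggrecanase, was lower in tumors than in cultures. It measured 10.91, 10.46, 10.85 and 11.05 in eMC empty and 11.26, 11.12, 11.42 and 11.40 in eMC CIC-DUX4. The CDS tumors 1 to 6 read 3.76, 9.04, 9.65, 8.95, 5.23 and 3.93, the same 3 dim tumors as for Mmp3, and by quantile 5.73, 7.55, 9.02, 7.48, 7.11 and 4.18. ES tumors ran from 2.38 through 7.85 to 8.81. All 12 tumors lay below all 8 cultures. Against eMC empty the difference was -4.06 ± 1.15 in CDS tumors (limma adjusted p = 0.0192, quantile -4.11), lost without eMC empty 4 (adjusted p = 0.0561), and -4.04 ± 1.06 in ES tumors (adjusted p = 0.00797, quantile -4.72). Against eMC CIC-DUX4 the CDS tumors were lower by -4.54 ± 1.16 (adjusted p = 0.0163), and CDS and ES tumors differed by -0.02 ± 1.35, an estimate too wide to show likeness.

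Adamts15 was brightest in eMC CIC-DUX4. It measured 9.58, 9.60, 9.60 and 9.53 there, 4.63, 4.75, 4.34 and 6.34 in eMC empty, 2.60 to 7.00 in CDS tumors and 2.14 to 3.30 in ES tumors. The culture arrays with CIC-DUX4 overlapped with no other group. The difference between the cultures was 4.56 ± 0.46 (limma adjusted p = 3.58e-05, quantile 1.29), or 2.49 more than the median gene. CDS tumors were below eMC CIC-DUX4 by -5.86 ± 0.98 (adjusted p = 0.00108, quantile -5.37), and ES tumors below eMC empty by -2.45 ± 0.42 (adjusted p = 0.000607, quantile -4.03). Adamts1 and Adamts9, which also cut versican, were less divided as deposited. Adamts1 lay above the dip in all arrays that had one, between 9.91 and 11.87, and it was called in 0 of the 5 comparisons as deposited. Adamts9 was called once as deposited, between the cultures (2.62 ± 0.80, quantile 0.69), where 2 eMC empty arrays lay above the dip and 2 below. By quantile Adamts9 read 5.63 to 8.77 in ES tumors, 9.27 to 9.44 in eMC empty and 9.01 to 10.38 in CDS tumors. On that scale the ES tumors overlapped with neither of these groups.

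Adamts3, a procollagen N-propeptidase, measured 7.60, 7.81, 6.89 and 6.31 in eMC CIC-DUX4 and 3.10, 3.28, 2.81 and 2.54 in eMC empty. The groups did not overlap, and the difference was 4.22 ± 0.45 (limma adjusted p = 5e-05, quantile 1.65), at least 1.23-fold. In tumors it was above the dip in CDS tumors 2 and 4, at 7.42 and 6.20, and in 0 ES tumors, whose highest value was 2.03. CDS tumors exceeded ES tumors by 2.65 ± 0.68 (adjusted p = 0.0101, quantile 1.63). Adamts12, which cuts the cartilage protein COMP, measured 10.39, 10.27, 10.50 and 10.54 in eMC CIC-DUX4 and 5.14, 5.52, 6.22 and 8.83 in eMC empty, a difference of 3.99 ± 0.74 (adjusted p = 0.00145, quantile 1.35). CDS tumors lay between 5.90 and 10.27, and ES tumors ran upward from 3.95 with a median of 7.80.

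Adamts16 and Adamts6, by the probe set used, were called higher in CDS tumors than in both eMC empty and ES tumors. Adamts16 read 4.19, 8.93, 7.66, 8.73, 5.06 and 4.31 in CDS tumors 1 to 6, above the dip in tumors 2, 3 and 4, and by quantile 6.74, 7.33, 7.08, 7.14, 6.47 and 5.51. It measured 2.90, 3.13, 2.65 and 2.59 in eMC empty and 1.92 to 3.29 in ES tumors, below the dip in all 10 arrays. CDS tumors exceeded ES tumors by 3.93 ± 0.92 (limma adjusted p = 0.00595, quantile 3.41), at least 2.70-fold. The difference from eMC empty, 3.66 ± 1.12 (adjusted p = 0.0275, quantile 3.54), was lost without any 1 of the 4 eMC empty arrays (adjusted p up to 0.0837). The other probe set of Adamts16 overlapped between these groups. It read 3.28 to 6.46 in CDS tumors, 2.64 to 4.21 in ES tumors and 2.90 to 3.90 in eMC empty. By quantile these ranges were 3.60 to 4.59, 3.42 to 5.14 and 4.17 to 4.92.

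Adamts6 was above the dip in CDS tumors 2 and 4, at 7.44 and 8.40, with a group median of 4.59. Its highest values were 2.65 in eMC empty and 2.90 in ES tumors, so CDS tumors did not overlap with either group. They exceeded ES tumors by 2.84 ± 0.81 (limma adjusted p = 0.0192, quantile 2.28), lost without ES tumor 51 (adjusted p = 0.0504). They exceeded eMC empty by 2.88 ± 0.96 (adjusted p = 0.0405, quantile 2.84), lost without CDS tumor 2 or any 1 eMC empty array (adjusted p up to 0.107). Adamts7 and Adamts10 were called higher in eMC CIC-DUX4 than in eMC empty as deposited (2.91 ± 0.72 and 3.27 ± 0.53) and turned sign by quantile (-0.41 and -0.25). Adamts8 was above the dip in 1 CDS tumor and 2 ES tumors and was called in 0 comparisons as deposited.

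**Figure D3:**
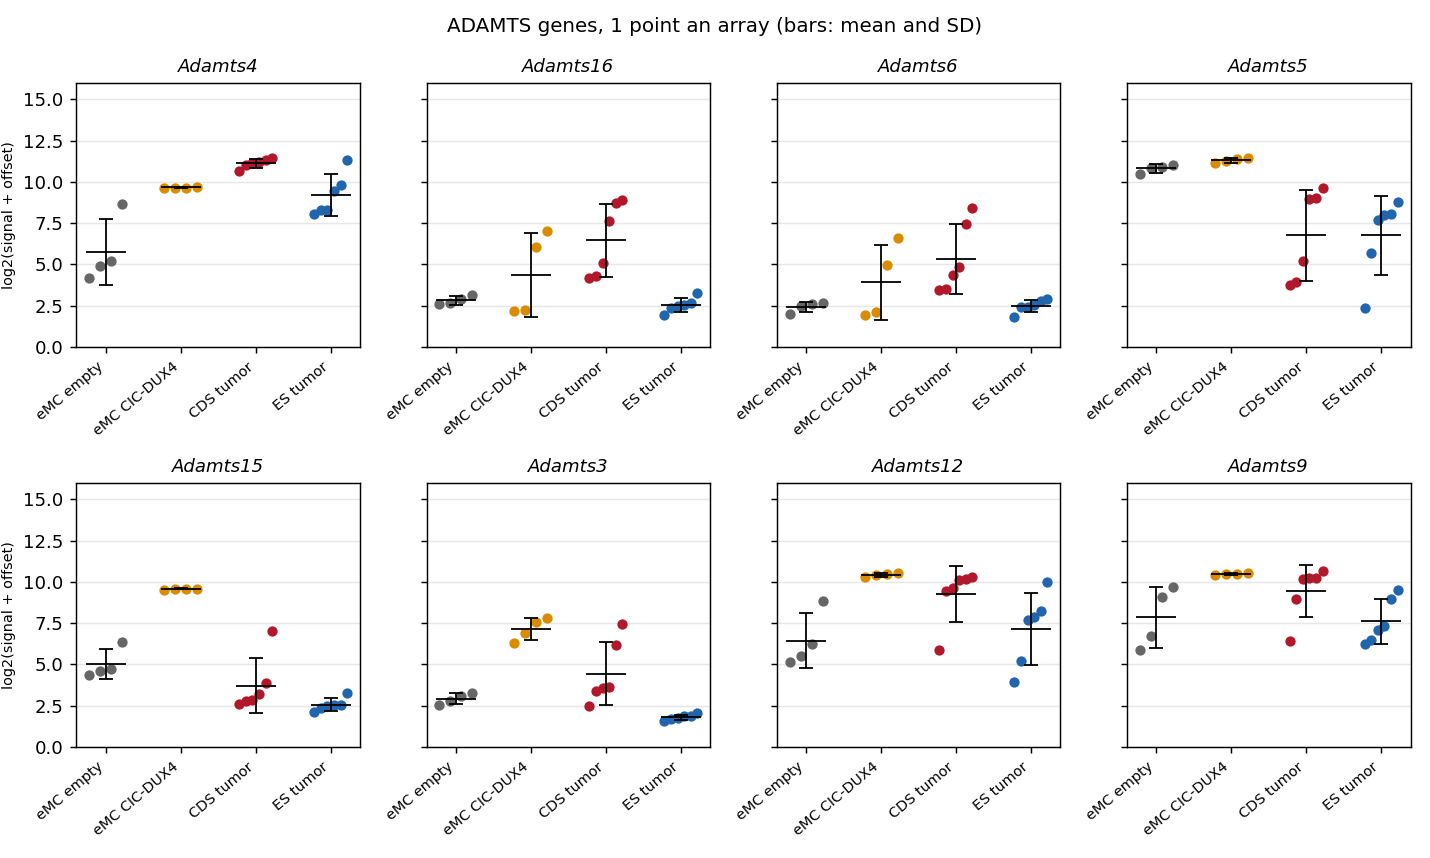
Each panel shows log2(signal + offset) of 1 Adamts gene (vertical axis) for the 4 groups (horizontal axis), 1 point per array, with the mean and SD as bars. Adamts4 steps up from eMC empty to eMC CIC-DUX4 to CDS tumors, Adamts5 is below every culture in all 12 tumors, Adamts15 is highest in eMC CIC-DUX4, and Adamts16 reaches 8.93 in CDS tumors and at most 3.29 in ES tumors.

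Adam22 and Adam23 belong to the ADAM proteins without a working protease site; both are neuronal receptors for LGI proteins at synapses. Adam22 was the member that most clearly set the ES tumors apart. It measured 9.65, 10.72, 11.03, 10.26, 9.14 and 11.49 in ES tumors 41, 46, 47, 48, 49 and 51, 2.09 to 3.56 in CDS tumors and 2.85, 2.94, 2.41 and 2.30 in eMC empty. All ES tumors were above the dip and all CDS tumors and eMC empty arrays below it. A further probe set of Adam22 did not pass the filter. It read 2.20 to 2.60 in ES tumors and 1.78 to 3.67 in CDS tumors, so the result rests on 1 probe set. The ES tumors exceeded eMC empty by 7.76 ± 0.63 (limma adjusted p = 3.4e-06, quantile 7.13), at least 11.5-fold. CDS tumors were below ES tumors by -7.54 ± 0.82 (adjusted p = 4.86e-06, quantile -7.12), the ES tumors being at least 23.7-fold brighter. In eMC CIC-DUX4 it read 5.71, 6.99, 2.03 and 2.27, the first 2 values from arrays 5 and 6, whose median log2 signals were 6.10 and 7.03 over all probe sets.

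Adam23 had a different pattern. The eMC CIC-DUX4 arrays read 9.80, 9.72, 9.76 and 9.65, with 4.62, 4.86, 5.30 and 7.98 in eMC empty, 1.90 to 2.80 in ES tumors, and 2.33 to 4.12 in 5 CDS tumors with CDS tumor 2 at 7.27. These culture arrays lay above all others. They exceeded eMC empty by 4.04 ± 0.69 (limma adjusted p = 0.000946, quantile 1.14). CDS tumors were lower than eMC CIC-DUX4 by -5.76 ± 0.99 (adjusted p = 0.00127, quantile -4.96), and ES tumors lower than eMC empty by -3.37 ± 0.59 (adjusted p = 0.000648, quantile -4.87), eMC empty being at least 1.56-fold brighter.

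Adam10 and Adam17 are the main sheddases, which release Notch, growth factor ligands and TNF from the cell surface. By the probe set used, Adam10 was bright and even, between 11.96 and 13.35 over all 20 arrays. By that probe set it was called in 0 comparisons on either scale, with log2 fold changes between -0.70 and 0.32 as deposited. Another probe set of Adam10 read 4.04 to 9.71 in CDS tumors, 8.40 to 9.86 in ES tumors, 10.51 to 10.68 in eMC CIC-DUX4 and 9.44 to 11.02 in eMC empty. By quantile it read 4.61 to 9.06 in tumors and 10.18 to 10.92 in cultures. A further, dimmer one read 3.23 to 4.73 and 5.52 to 7.49 by quantile, but overlapped as deposited. Adam17 measured 11.16, 10.69, 11.41 and 11.35 in eMC empty, 11.78, 11.65, 11.96 and 11.97 in eMC CIC-DUX4, 8.92 to 10.83 in ES tumors, and 9.92 to 10.39 in 5 CDS tumors with CDS tumor 5 at 6.71 (9.86 by quantile). All 6 CDS tumors lay below all 8 cultures. They were below eMC CIC-DUX4 by -2.26 ± 0.62 (limma adjusted p = 0.0233, quantile -2.41), lost without any 1 of the 4 arrays of that culture group (adjusted p up to 0.0635). ES tumors were below eMC empty by -1.10 ± 0.35 (adjusted p = 0.0208, quantile -1.77), lost without ES tumor 41 or eMC empty 4 or 6 (adjusted p up to 0.0582).

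Adam9, another sheddase, was lower in both tumor types than in the cultures. It measured 13.45, 13.74, 13.35 and 13.12 in eMC empty, 12.69, 12.51, 12.88 and 12.91 in eMC CIC-DUX4, 10.27 to 11.97 in CDS tumors and 10.79 to 11.83 in ES tumors. Tumors and cultures did not overlap. The difference from eMC empty was -2.06 ± 0.34 in CDS tumors (limma adjusted p = 0.000404, quantile -1.48) and -2.13 ± 0.23 in ES tumors (adjusted p = 2.37e-05, quantile -1.77). CDS tumors were also below eMC CIC-DUX4 (-1.39 ± 0.31, adjusted p = 0.00757). Adam12, which is made by mesenchymal and muscle-forming cells, measured 11.82, 11.73, 11.67 and 11.48 in eMC empty and 7.32 to 9.81 in ES tumors, a difference of -3.06 ± 0.47 (adjusted p = 0.000293, quantile -3.80). In CDS tumors 5 values lay between 8.72 and 10.84 and CDS tumor 5 read 5.95. Adam19 was lower in ES tumors than in eMC empty by -1.82 ± 0.49 (adjusted p = 0.00934, quantile -2.90), with values of 7.71 to 9.90 against 10.61, 10.08, 10.43 and 10.77. Adam8, a leukocyte ADAM, and Adam15 were called higher in eMC CIC-DUX4 than in eMC empty as deposited (2.90 ± 0.79 and 2.72 ± 0.89) but not by quantile (-0.82 and 0.01). By the probe set used, Adam4, Adam11 and Adam33 were above the dip in 0 ES tumors and 0 eMC empty arrays. By that probe set they were called in 0 comparisons on either scale. The other probe set of Adam33 differed between the cultures. It read 6.29 to 7.97 in eMC CIC-DUX4 and 2.15 to 2.71 in eMC empty. After quantile normalization these ranges were 4.85 to 5.16 and 2.1 to 2.74, so the cultures did not overlap on either scale.

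**Figure D4:**
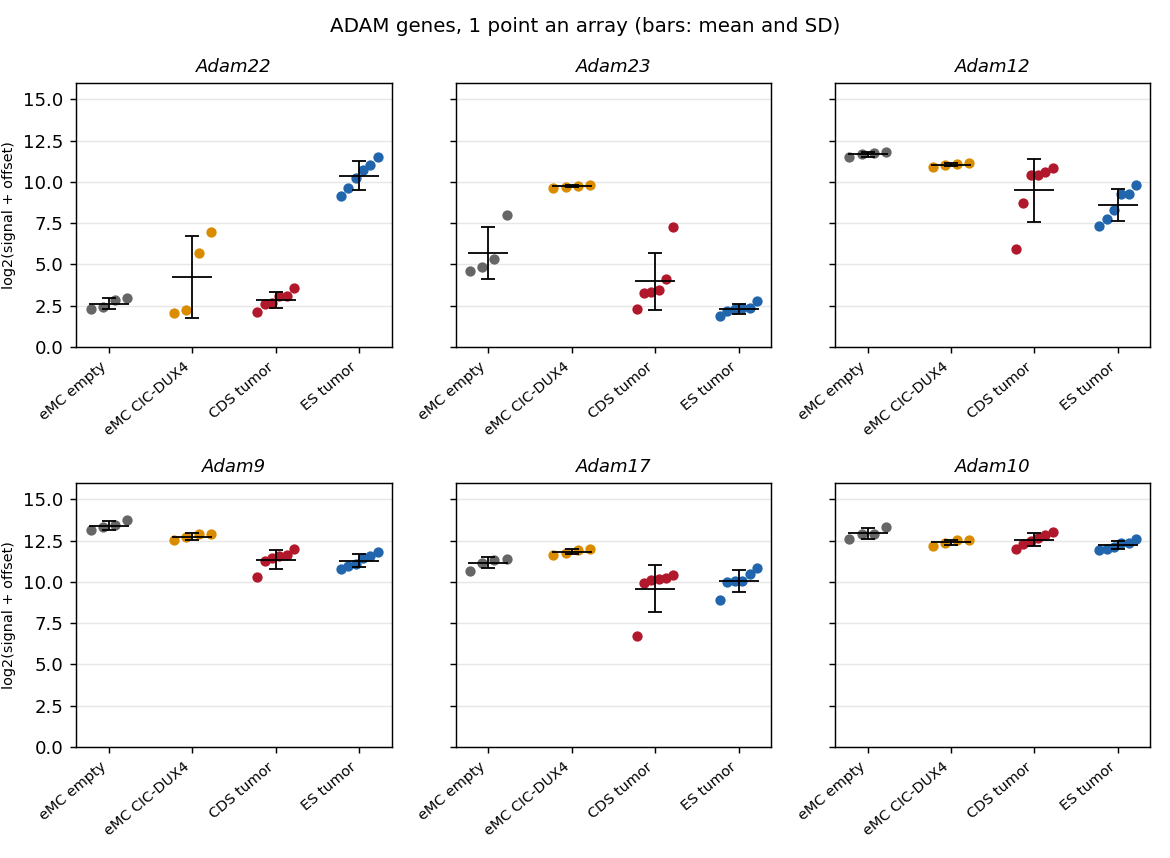
Each panel shows log2(signal + offset) of 1 Adam gene (vertical axis) for the 4 groups (horizontal axis), 1 point per array, with the mean and SD as bars. Adam22 is at least 9.14 in ES tumors and at most 3.56 in CDS tumors, Adam23 is bright in eMC CIC-DUX4, Adam9 is lower in both tumor groups than in both cultures, and Adam10, by the probe set shown, is even across the groups.

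Timp1, Timp2 and Timp3 are the inhibitors; Timp2 also takes part in proMMP2 activation by Mmp14, and Timp3 binds the matrix and inhibits ADAM and ADAMTS enzymes too. All 3 were above the dip in every array that had one. Timp1 measured 13.93, 14.03, 13.85 and 13.65 in eMC empty, 12.35, 12.12, 12.53 and 12.56 in eMC CIC-DUX4, and had a lowest, median and highest of 11.62, 12.76 and 13.27 in CDS tumors and 10.45, 11.66 and 13.49 in ES tumors. As deposited, every array of the other 3 groups was below eMC empty. The differences were -1.48 ± 0.13 in eMC CIC-DUX4 (limma adjusted p = 1.58e-05), -1.27 ± 0.32 in CDS tumors (adjusted p = 0.0092) and -2.09 ± 0.46 in ES tumors (adjusted p = 0.00296). By quantile they were -0.62, -0.76 and -1.64, and only that of the ES tumors was called.

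Timp2 measured 14.23, 14.49, 14.01 and 13.65 in eMC empty, 12.71, 12.55, 12.89 and 12.95 in eMC CIC-DUX4, 11.42 to 13.04 in CDS tumors and 11.03 to 12.47 in ES tumors. It was lower than in eMC empty by -1.81 ± 0.31 in CDS tumors (limma adjusted p = 0.000566, quantile -1.25) and -2.18 ± 0.26 in ES tumors (adjusted p = 5.16e-05, quantile -1.61), with no overlap. Between the cultures it was lower by -1.32 ± 0.18 (adjusted p = 0.000196) but by -0.36 in quantile values. As deposited, its 5 probe sets disagreed in that comparison: the other 4 gave 2.16, -0.46, 0.42 and -0.54, and the mean of all 5 gave 0.05. By quantile the probe set at 2.16 was lower in eMC CIC-DUX4, at 5.79 to 6.67 against 7.89 to 8.78 in eMC empty. The one at 0.42 was lower too (9.56 to 9.84 against 10.14 to 10.58). The one at -0.54 was higher (12.84 to 12.98 against 12.62 to 12.74), and the one at -0.46 overlapped. In CDS tumors against eMC empty the other 4 gave -1.11, -0.71, -0.37 and -0.27 as deposited, none called, and the mean of all 5 gave -0.85 (adjusted p = 0.151). As deposited, that call thus rests on 1 probe set of Timp2. By quantile the probe set at -1.11 read 3.38 to 5.55 in CDS tumors and 7.89 to 8.78 in eMC empty, and those at -0.71, -0.37 and -0.27 overlapped. All 5 probe sets of Timp2 were called lower in ES tumors than in eMC empty, from -1.38 to -3.25. In CDS against ES tumors, 2 of the other 4 probe sets of Timp2 were called higher (1.33 and 1.24), and the one used was not (0.38).

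Timp3 measured 12.15, 12.34, 12.07 and 11.98 in eMC empty, 11.43, 11.26, 11.53 and 11.47 in eMC CIC-DUX4, 10.98 to 12.48 in CDS tumors and 6.73 to 11.78 in ES tumors. Only the ES tumors were called below eMC empty, by -2.40 ± 0.75 (limma adjusted p = 0.0194, quantile -2.74). CDS tumors exceeded ES tumors by 1.93 ± 0.62 (adjusted p = 0.0347, quantile 2.52), but that call was lost without CDS tumors 1 or 2 or ES tumors 41, 47, 49 or 51 (adjusted p up to 0.0706). All 3 inhibitors and Mmp2, Mmp3 and Mmp14 were thus called lower in ES tumors than in eMC empty on both scales. The mesenchymal marker sum was also lower there, at 15700 to 39000 in ES tumors against 88600 to 153000 in eMC empty, though the 7 markers did not move as one. Pdgfra, Vim, Thy1 and S100a4 lay above the dip in all ES tumors and Twist1 in 0, and 4 of 7 were called lower and 0 higher in ES tumors as deposited. Pdgfra averaged 9.24 in ES tumors and 7.53 in eMC empty. The part of these cells in the result was not tested.

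**Figure D5:**
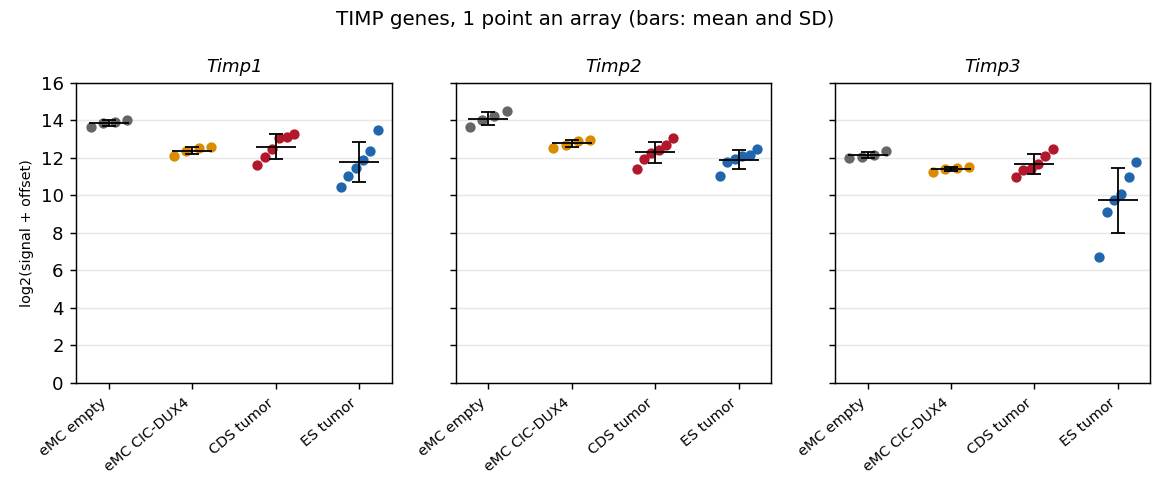
Each panel shows log2(signal + offset) of 1 Timp gene (vertical axis) for the 4 groups (horizontal axis), 1 point per array, with the mean and SD as bars. Timp1 and Timp2 are highest in eMC empty as deposited, and Timp3 is lowest and most spread in the ES tumors.

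Of the 17 members called higher in eMC CIC-DUX4 than in eMC empty as deposited, 11 had eMC empty 7 as the brightest of the 4 empty arrays and above its dip, and for 6 all empty arrays were below the dip. The 6 members called on both scales were Mmp8, Mmp11, Adam23, Adamts3, Adamts12 and Adamts15. Where several probe sets read a gene, 19 tested genes had 30 further probe sets that passed the filter. Further probe sets that did not pass are not counted here. Those of called genes were called the same way in 7 of 14 cases between the cultures, 2 of 11 in CDS tumors and 11 of 17 in ES tumors against eMC empty, 3 of 6 between the tumor types and 7 of 8 between CDS tumors and eMC CIC-DUX4. The others were not called, and 0 were called the opposite way. The 15 untested members were Adam2, Adam3, Adam5, Adam7, Adam18, Adam21, Adam24, Adam25, Adam28, Adam34, Adamts18, Adamts20, Mmp1a, Mmp1b and Mmp20. Several of these are best known from the testis (Adam2, Adam3) or from enamel (Mmp20). Their highest values, 2.62 to 6.44, were all in eMC CIC-DUX4 6, the array without a dip.

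Some of the calls above were lost when several arrays were left out together. Without the 3 arrays of few bright probe sets (CDS tumor 5 and eMC empty 4 and 5, which leaves 2 eMC empty arrays), Mmp3, Mmp14, Adamts5, Adamts6 and Adamts16 lost their call in CDS tumors against eMC empty (limma adjusted p from 0.0554 for Mmp3 to 0.27 for Adamts6), with folds of the same sign. Mmp3, Mmp14, Timp3, Adamts4 and Adamts5 lost theirs in ES tumors against eMC empty (adjusted p from 0.0566 to 0.118), and Adamts3 fell under the fold threshold (-0.87). Without the arrays of high median (CDS tumor 2 and eMC CIC-DUX4 5 and 6), Mmp3, Mmp11, Adam9, Adam17, Adamts4 and Adamts5 lost theirs in CDS tumors against eMC CIC-DUX4 (adjusted p from 0.0858 to 0.127), and Adamts6 in CDS tumors against eMC empty (0.0536). Mmp9 and Mmp13 kept their calls in CDS tumors in these 2 settings.

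Scaling the arrays to 1 median, under which the median fold of all genes was 0.52 between the cultures, 0.18 and 0.95 in CDS and ES tumors against eMC empty, -0.99 between the tumor types and -0.07 between CDS tumors and eMC CIC-DUX4, ended more calls. No member was called between the cultures (limma, 10 at an unadjusted p under 0.05), where 0 of all 12343 genes were called either. Mmp14, Timp1, Adamts6 and Adamts16 lost their call in CDS tumors against eMC empty (adjusted p 0.0907 to 0.138), and Adam17 and Adamts3 in ES tumors (-0.79 and -0.83). Mmp2, Mmp9, Timp3, Adamts4 and Adamts6 lost theirs between the tumor types (adjusted p 0.0623 to 0.364), and Mmp3, Mmp9, Mmp11, Mmp13, Adam9, Adam17, Adamts4 and Adamts5 between CDS tumors and eMC CIC-DUX4 (0.118 to 0.886). With all 4 groups in 1 fit, Mmp9 lost its call between CDS tumors and eMC CIC-DUX4 (adjusted p = 0.0581), and Mmp12 lost its calls between the cultures (0.105) and in CDS tumors against eMC empty (0.165), where Mmp14 lost its call too (0.0679). Mmp3, Adam17 and Adamts3 lost theirs in ES tumors against eMC empty in that fit (0.111, 0.109 and 0.251). With the mean of probe sets, Adamts16 lost its call in CDS tumors against eMC empty (2.20, adjusted p = 0.0621) and Timp3 its call between the tumor types (0.093).

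Around the members stand the genes that activate, carry or restrain them, of which 40 were listed, 36 were on the array and 31 were tested. They include the plasmin system, proprotein convertases, cathepsins, the tetraspanins and rhomboid-like proteins that escort ADAM10 and ADAM17, and the ADAMTS-like proteins. As deposited, 18 were called higher and 1 lower between the cultures (46.4% and 4.62% of all genes). Relative to eMC empty, 6 rose and 6 fell in CDS tumors (14.6% and 5.81%), and 3 rose and 9 fell in ES tumors (30.1% and 10.9%). CDS tumors had 10 higher and 1 lower than ES tumors (11.2% and 9.58%), and 1 higher and 6 lower than eMC CIC-DUX4 (5.14% and 12.7%). A2m, a protease-trapping plasma protein, ran from 5.73 through 9.52 to 10.53 in CDS tumors and reached at most 3.14 in eMC empty and 2.98 in ES tumors. It exceeded ES tumors by 6.27 ± 0.95 (limma adjusted p = 0.000146, quantile 5.73), at least 13.3-fold, and eMC empty by 5.92 ± 1.07 (adjusted p = 0.000893, quantile 5.62), at least 3.79-fold.

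Reck, a membrane-anchored inhibitor of MMPs, was lower in both tumor types. It ran from 9.91 through 10.88 to 11.17 in eMC empty, from 5.78 through 8.60 to 9.42 in CDS tumors and from 3.17 through 5.03 to 7.52 in ES tumors. The difference from eMC empty was -5.62 ± 0.96 in ES tumors (limma adjusted p = 0.000566, quantile -5.59) and -2.48 ± 0.71 in CDS tumors (adjusted p = 0.02, quantile -2.71). In eMC CIC-DUX4 Reck was higher than in eMC empty by 1.39 ± 0.28 (adjusted p = 0.00248, quantile 1.46). Tspan17, a tetraspanin partner of ADAM10, was higher in CDS tumors by 4.52 ± 1.14 against eMC empty (adjusted p = 0.00945, quantile 2.65) and 5.15 ± 1.10 against ES tumors (adjusted p = 0.00297, quantile 4.61). Thbs2, a matricellular thrombospondin, was lower in ES tumors than in eMC empty by -3.88 ± 0.50 (adjusted p = 8.96e-05, quantile -4.01).

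Adamtsl1, an ADAMTS-like protein without a protease domain, was higher in eMC CIC-DUX4 than in eMC empty by 5.13 ± 0.37 (limma adjusted p = 8.58e-06, quantile 2.67), at least 2.64-fold. Pcsk5, a proprotein convertase, was higher by 5.10 ± 0.33 (adjusted p = 8.28e-06, quantile 1.49), at least 5.09-fold, and Fap, a fibroblast surface protease, by 3.46 ± 0.94 (adjusted p = 0.0111, quantile 1.87). Adamtsl2 was high in ES tumors, 5.40 ± 0.70 above eMC empty (adjusted p = 8.76e-05, quantile 2.99), and CDS tumors were below ES tumors by -3.75 ± 1.02 (adjusted p = 0.0147, quantile -2.95). Htra1, a secreted serine protease, was lower in CDS tumors by -3.33 ± 0.84 against eMC empty (adjusted p = 0.00928, quantile -2.67) and -3.89 ± 0.85 against eMC CIC-DUX4 (adjusted p = 0.00673, quantile -3.79). Serpinb2 and Plaur of the plasmin system were lower in CDS tumors than in eMC CIC-DUX4 by -6.20 ± 0.75 (adjusted p = 9.27e-05, quantile -4.61) and -4.02 ± 1.04 (adjusted p = 0.0172, quantile -2.82).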

How the data were processed

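Total RNA of 20 samples was labelled with biotin and hybridised to 1 mouse array each. Per the submitters' processing notes, MAS5 made the deposited signals, which are on a log2 scale; neither its version nor its settings were given in the sources used here. Every column belonged to a listed sample, and 0 arrays were identical. Of 45141 probe sets, 104 controls were left out, and 28898 of the rest had 1 gene symbol in the platform annotation. All 57 members matched RefSeq by Entrez number, with 0 symbols changed.

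Signals were returned to the linear scale, 1.42305 was added (0.25 times the middle of the 20 array medians, 5.6922), and log2 was taken again; the design had been written for linear signals, so this return was needed. The filter asked for a signal over the array's own median on 4 or more of 20 arrays, which 26897 probe sets met, and a gene was read by the probe set of the highest mean, giving 12343 genes. Each comparison was fitted on its 2 groups by lmFit and trended eBayes (limma 3.58.1, R 4.3.3, with the data-reading package data.table at version 1.17.8), and all tests are two-sided. The number of arrays limits the precision. "At least" folds set the brighter group's mean against the higher of dip (bandwidth 0.35) and signal in the dimmer arrays; they were given where every dimmer array had a dip and lay below it, hold for the deposited scale only, and were left out where under 1. The fitted fold beside such a bound rests on signals below the dip.

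The members, lists and tests were chosen with earlier results of these data known. Named are, per comparison, up to 5 highest and 5 lowest members called the same way on both scales without overlap, the central genes Mmp2, Mmp3, Mmp9, Mmp13, Mmp14, Adam10, Adam17 and Timp1 to Timp3, and up to 3 partner genes per comparison. Other genes, and a partner's values outside the comparison that named it, were added after their values were seen. Promoter sequences were found for 32 of the 57 members, and protein sequences were not used here. Replicate numbers were shared by eMC and CDS labels, but same-numbered deviations correlated at 0.38, -0.19 and 0.38 between the cultures, -0.19, 0.49 and 0.09 between CDS tumors and eMC empty, and 0.28 and 0.05 between CDS tumors and eMC CIC-DUX4, so the numbers were not taken as pairs. Alternatives were quantile normalization, median scaling, no offset, no filter, the mean of probe sets, all 4 groups in 1 fit, no trend, the adjusted p alone, a block on the replicate number, every array dropped singly, the 3 arrays with a median over 5 left out and, added once the data had been seen, the 3 arrays having under 15% of probe sets above the dip left out. Each fit was first tested on simulated data.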

Additional observations from a re-analysis of the deposited data

Results flagged for a closer look

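Among 92 sets of values (23 named members in 4 groups), 7 held an array far from the rest of its group, where chance alone gives about 1 in 20. In the CDS tumors, Adam17 read 6.71 in tumor 5 against 9.92 to 10.39 in the others, and Adamts12 read 5.90 in tumor 5 against 9.43 to 10.27. By quantile the values of tumor 5 were 9.86 and 8.95. Adam23 read 7.27 in CDS tumor 2 against 2.33 to 4.12, and Adamts15 read 7.00 there against 2.60 to 3.90. Mmp2 read 10.08 in CDS tumor 6 against 12.10 to 13.03, and 9.80 by quantile. In the ES tumors, tumor 46 stood above the others for Mmp2 (12.02 against 8.93 to 9.93) and for Adamts15 (3.30 against 2.14 to 2.56, all below the dip).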

How the results depend on the processing

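Of 60 calls of named members, 48 held in every fit that left out 1 array, and 12 were lost in at least 1. Of the 60, 30 were lost after median scaling, 14 without the 3 arrays of few bright probe sets, 9 with all 4 groups in 1 fit, 8 without the trend, 7 by quantile, 5 with the mean of probe sets, 1 without the filter and 0 without the offset, besides the 2 turned signs below. 9 of 45 were lost without the arrays of high median and 3 of 34 with the replicate block. 2 signs turned: Mmp12 between the cultures by quantile (-0.40) and Timp2 between the cultures by the mean of probe sets (0.05). Counts of called members that moved by over 1.5 times were, for eMC CIC-DUX4 against eMC empty (20 called), 8 by quantile and 0 after median scaling, where limma gave 10 at an unadjusted p under 0.05; for CDS tumors against eMC empty (12), 21 by quantile; for ES tumors against eMC empty (17), 10 without the 3 arrays of few bright probe sets; for CDS against ES tumors (11), 21 by quantile and 6 by median scaling; for CDS tumors against eMC CIC-DUX4 (15), 23 by quantile, 4 by median scaling, 7 when arrays of high median were dropped, and 28 with the replicate block. Shares of higher calls are in the text for both scales; median scaling gave 3 higher and 3 lower for CDS against ES tumors and 0 and 4 between CDS tumors and eMC CIC-DUX4. Leaving out 1 array gave 17 to 21, 8 to 17, 16 to 19, 7 to 13 and 10 to 16 called members in the 5 comparisons, in the order of the report. The lowest were 8 without eMC empty 4 and 7 without ES tumor 51. Calls over all genes shifted too. Between the cultures 6303 became 1597 by quantile and 0 after median scaling. In CDS tumors against eMC empty 2518 became 4539 by quantile. In ES tumors 5057 became 3015 without the arrays of few bright probe sets. Between the tumor types 2564 became 4086 by quantile and 2861 by median scaling. Between CDS tumors and eMC CIC-DUX4, 2202 became 4575 by quantile, 756 by median scaling, 898 without arrays of high median and 7197 with the block. The cause of these shifts was not tested.

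Partner genes moved, for eMC CIC-DUX4 against eMC empty (19), to 6 by quantile, 0 by median scaling (limma, 10 at an unadjusted p under 0.05) and 12 without the arrays of high median; for CDS tumors against eMC empty (12), to 4 by median scaling; for CDS against ES tumors (11), to 5 by median scaling; and in the comparison of CDS tumors and eMC CIC-DUX4 (7), to 19 by quantile, 1 by median scaling, 11 with all 4 groups in 1 fit and 20 with the replicate block. Leaving out 1 array gave 15 to 18, 9 to 13, 11 to 14, 8 to 12 and 5 to 11. Over all genes, calls between the cultures fell to 4388 without the arrays of high median. Median scaling gave 941 in CDS tumors against eMC empty. All 4 groups in 1 fit gave 3044 between CDS tumors and eMC CIC-DUX4. The replicate block otherwise gave 19 and 11 members and 17 and 12 partners for the comparisons of eMC CIC-DUX4 and of CDS tumors with eMC empty; with 3 pairs, not every sample correlated best with its own number. ES tumors share no numbers with the other groups, so no block was possible there. Signals below the dip limit folds of dim members to the bounds given.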

Other observations

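One ES tumor was the brightest of its group for more members than the others. ES tumor 46 was the highest of the 6 ES tumors for 22 of the 42 tested members (23 by quantile) and the lowest for 0, whereas it was the highest for 14.1% of all 12343 genes (14.9% by quantile). Among those members were Mmp9 at 11.94, Mmp13 at 13.69, Mmp3 at 11.96, Mmp2 at 12.02, Mmp14 at 11.50, Mmp10 at 8.93, Adamts4 at 11.33, Timp1 at 13.49 and Timp3 at 11.78. Its neutrophil marker sum was 10100 against 712 to 2890 in the other ES tumors, its osteoclast sum 6530 against 324 to 2080 its endothelial sum 5260 against 716 to 4400 and its mesenchymal sum 39000 against 15700 to 25400. Its macrophage sum, 55100, lay within the range of the others. The part of these cells in the pattern was not tested. In the CDS tumors, tumor 2 was the highest for 23 members, but it was also the highest for 44.1% of all genes, and for 9 members by quantile.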
